A study of Mus musculus with 56 samples.

Results

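The gene of the TWEAK receptor and 7 genes of the noncanonical NF-kB pathway were followed in the front paws of mice with collagen-induced arthritis. The set holds Tnfrsf12a, Tnfsf12, Map3k14, Traf3, Birc2, Birc3, Nfkb2 and Relb, all 8 of which were found by symbol among the 53431 features of the expression table. Tnfrsf12a was chosen by its measured FPKM, which was higher in mice given an IL-6 antibody than in isotype controls. Its levels in those groups are therefore given as a description. A difference between groups is tested for it only where neither group entered that choice. Its correlations are tested over all immunised libraries, those groups included, after group means are subtracted. The other 7 genes were taken for their place in the pathway.

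RNA was sequenced from front paws of 56 male DBA/1 mice, 1 library a mouse, of which 52 had been immunised with chicken type II collagen on days 1 and 21. From day 21 these mice received antibodies by intraperitoneal injection 2 times a week for 5 weeks, and RNA was taken on day 91. The injections had thus ended before RNA was taken, and no level here was measured during dosing. The anti-IL-6 group received clone MP5-20F3 at 10 mg/kg (n = 13), and the anti-TNF group received clone XT3.11 at 30 mg/kg (n = 13). The combination group received both antibodies at these doses (n = 13), the isotype group received an IgG1 control antibody at 30 mg/kg (n = 13), and the no CIA group was neither immunised nor treated (n = 4). Ages are not stated in the labels.

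TWEAK, the product of Tnfsf12, is a cytokine of the TNF family made largely by monocytes and macrophages, and it signals through Fn14, the product of Tnfrsf12a. Fn14 is low in most healthy tissue and is induced in injured muscle, fibroblasts and epithelium. In resting cells TRAF3, with TRAF2 and the ubiquitin ligases cIAP1 (Birc2) and cIAP2 (Birc3), keeps the kinase NIK (Map3k14) at a low level. Ligand binding draws these adaptors to the receptor, NIK accumulates, and the NF-kB2 precursor p100 (Nfkb2) is processed to p52, which enters the nucleus with RelB (Relb). Nfkb2, Relb and Birc3 are themselves known NF-kB target genes, and most steps of the pathway act on protein, which these data do not measure.

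The stretches before the transcription starts are shown because NF-kB is known to bind its kappaB sites near the starts of target genes. RefSeq start sites on mouse GRCm38.p6 gave 9 windows of 250 bases for 6 of the 8 genes. No window was in the table for Tnfsf12 or Relb. Each window was searched on both strands for the kappaB consensus, for the AP-1 motif TGANTCA and for the E-box CACGTG. Capitals mark matches to the kappaB consensus, and the sequences run 5′ to 3′ on the gene's strand and end at the base before the start. The Tnfrsf12a window lies on the minus strand at chr17:23677450-23677699, the first Nfkb2 window on the plus strand at chr19:46304487-46304736, and the Traf3 window on the plus strand at chr12:111166120-111166369.
Tnfrsf12a: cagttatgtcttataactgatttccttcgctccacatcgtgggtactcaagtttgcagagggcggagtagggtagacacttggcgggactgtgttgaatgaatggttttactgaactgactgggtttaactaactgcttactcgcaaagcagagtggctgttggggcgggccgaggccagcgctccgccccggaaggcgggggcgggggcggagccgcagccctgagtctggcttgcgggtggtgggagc
Nfkb2: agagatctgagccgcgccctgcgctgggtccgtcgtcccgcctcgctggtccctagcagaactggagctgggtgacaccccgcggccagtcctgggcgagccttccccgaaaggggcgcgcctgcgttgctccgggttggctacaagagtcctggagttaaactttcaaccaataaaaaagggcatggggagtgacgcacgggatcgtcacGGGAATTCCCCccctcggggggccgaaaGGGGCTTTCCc
Traf3: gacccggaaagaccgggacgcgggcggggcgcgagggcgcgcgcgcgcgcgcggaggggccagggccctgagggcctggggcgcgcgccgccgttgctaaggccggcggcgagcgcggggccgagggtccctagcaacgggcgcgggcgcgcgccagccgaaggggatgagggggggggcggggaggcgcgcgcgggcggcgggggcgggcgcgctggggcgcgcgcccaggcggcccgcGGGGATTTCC
The first Nfkb2 window held kappaB matches whose first bases lay at -39, -38 and -11 from the start, of which the first pair overlap. The Traf3 window held 1 match, with its first base at -10. The other 2 Nfkb2 windows each held 1 match, at -236 and at -225 from their own starts. No kappaB match was found in the windows of Tnfrsf12a, Map3k14, Birc2 or Birc3. The second Nfkb2 window also held an AP-1 match at -210, the only one among the 9 windows, and none of them held an E-box. Over all 32851 windows in the table, 7.25% held a kappaB match, 6.75% an AP-1 match and 6.02% an E-box. A match is a string of letters, and its absence says nothing about binding elsewhere.

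All 8 genes were well covered, as FPKM (fragments per kilobase of transcript and mega mapped fragments, the unit deposited by the authors). In the library with the lowest coverage a gene had from about 530 fragments for Tnfsf12 to about 2257 for Tnfrsf12a, and each library held an estimated 39.8 to 54.65 M fragments (M, mega). On this scale, which corrects for gene length, Tnfrsf12a was the highest of the 8 genes and Map3k14 and Traf3 were the lowest in every group. Differences are on the log2(FPKM + 1) scale with the standard error from limma, fitted to all 56 libraries and 14700 features, and a gene is called changed where the Benjamini-Hochberg adjusted p over those features is below 0.05. Libraries fell into 5 runs of index numbers in their labels, which groups did not share evenly, and anti-IL-6 replicates 13 and 6 correlated least with the other libraries. Paw tissue is a mixture, so fewer cells of a type and less RNA per cell cannot be told apart. All 16 marker lists, which are for tissues, cell types and circadian clock genes, were detected. Among them were skeletal muscle, epidermis, cartilage, bone, synovial fibroblasts and leukocytes.

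Tnfrsf12a was highest in the anti-IL-6 group. It lies on chromosome 17 (GRCm38, positions 23675445 to 23677468, minus strand) and encodes Fn14, a small receptor with no death domain. Its lowest, median and highest levels were 38.35, 50.78 and 73.48 FPKM in anti-IL-6 paws, 32.68, 41.35 and 49.55 FPKM in anti-TNF paws, 28.13, 41.59 and 49.62 FPKM in combination paws, and 27.02, 33.6 and 46.29 FPKM in isotype paws. The 4 no CIA paws had 48.7, 33.59, 32.46 and 44.47 FPKM. In words, 9 of 13 anti-IL-6 libraries lay above the highest isotype library and all 13 lay above the isotype mean, while the lower end of the anti-IL-6 group overlapped the isotype group. Only 3 of 13 anti-TNF libraries and 2 of 13 combination libraries lay above the highest isotype library.

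By mean, the order of Tnfrsf12a was anti-IL-6 at 50.8 ± 9.93 FPKM, anti-TNF at 41.4 ± 4.87 FPKM, combination at 39.8 ± 7.05 FPKM and isotype at 35.2 ± 6.41 FPKM (SD, n = 13 each), with no CIA at 39.8 ± 8.03 FPKM (SD, n = 4). Described without a test, the difference was 0.51 ± 0.095 (SE) for anti-IL-6 minus isotype, 0.24 for anti-TNF minus isotype and 0.17 for combination minus isotype. By mean over all runs, the gene stood above isotype in each antibody group, and furthest in the anti-IL-6 group. Within index run 2 (4 libraries against 1) combination minus isotype was -0.02. Combination minus anti-IL-6 was -0.34 and anti-IL-6 minus anti-TNF was 0.28, with 4 of 13 combination libraries below the lowest anti-IL-6 library and 8 of 13 anti-IL-6 libraries above the highest anti-TNF library. Isotype minus no CIA was -0.17 ± 0.139 (SE), and 6 of 13 isotype libraries lay below the lowest no CIA library, but within index run 1, which held 2 isotype and all 4 no CIA libraries, it was 0.032.

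The neighbours in that order that could be tested did not differ beyond their spread. Combination minus anti-TNF was -0.07 ± 0.095 (SE), with a 95% interval of ± 0.191 and an adjusted p of 0.999 by limma. Anti-TNF minus no CIA was 0.07 ± 0.139 (SE), with an interval of ± 0.279 and an adjusted p of 0.799. Combination minus no CIA was close to 0, with an interval of ± 0.279 and an adjusted p of 0.999. These intervals leave room for differences of up to about the width given, so the groups are not shown to be alike. Adding the IL-6 antibody thus went with a difference of 0.51 over isotype and of -0.07 over anti-TNF, and the contrast between these was -0.58 ± 0.134 (SE), which is not tested because it contains the comparison that chose the gene.

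Index runs and tissue markers differed between the anti-IL-6 and isotype groups. Within runs 2, 4 and 5 the Tnfrsf12a difference was 0.457 (4 anti-IL-6 libraries against 1 isotype library), 0.629 (8 against 1) and 0.215 (1 against 5), so the 2 groups met mainly through single libraries. The difference was 0.51 with run in the model. Anti-TNF minus isotype was 0.231, 0.238 and 0.279 within runs 2, 3 and 5, and combination minus isotype was -0.02, 0.212, 0.262 and 0.422 within runs 2 to 5. The skeletal muscle marker score, a mean of log2(FPKM + 1) over 11 genes, was 9.06 ± 1.34 in anti-IL-6 paws and 9.76 ± 1.22 in isotype paws, and all 11 markers had lower means in anti-IL-6 paws. Their summed level ran between 1580 and 34200 FPKM in anti-IL-6 paws and between 2540 and 33500 FPKM in isotype paws. The clock gene score, the mean of 10 genes activated by the circadian clock minus that of 5 in antiphase, was 0.04 ± 0.45 in anti-IL-6 paws and 1.22 ± 0.44 in isotype paws. With the muscle score as a covariate the Tnfrsf12a difference was 0.48, with the neutrophil score 0.52 and with the clock score 0.43.

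**Figure D1:**
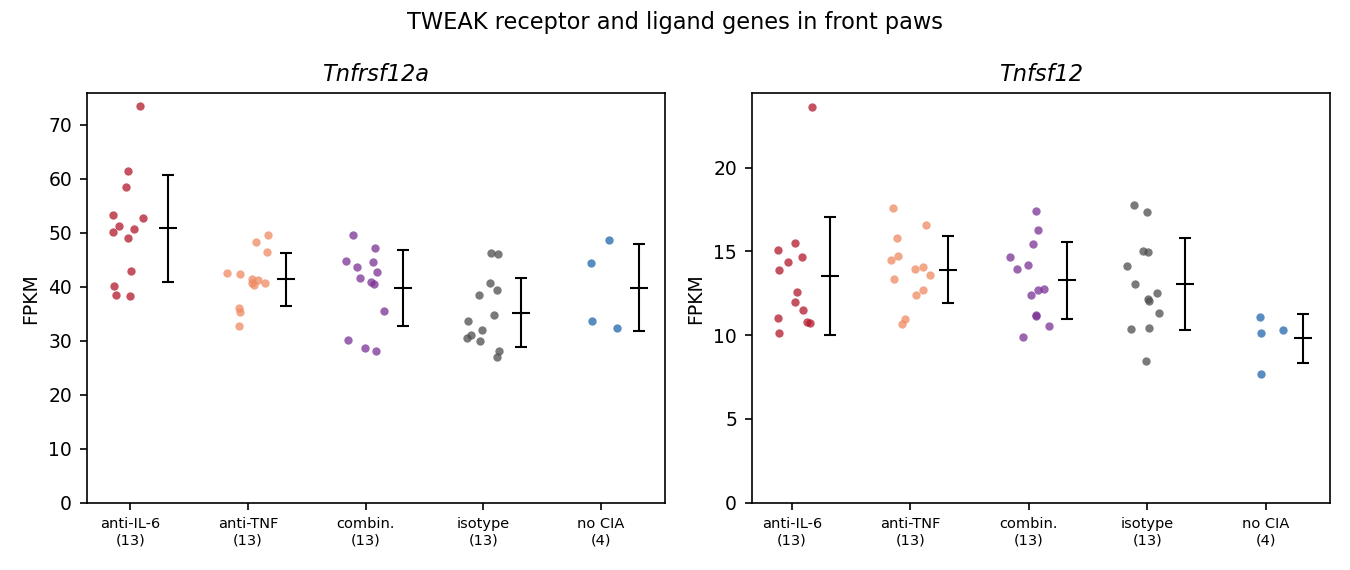
Levels of Tnfrsf12a (left) and Tnfsf12 (right) in FPKM on the vertical axis, 1 point a library, in the 5 groups, with the mean and SD beside each group. For Tnfrsf12a the anti-IL-6 points reach 73.48 FPKM and overlap the isotype points, which reach 46.29 FPKM, and for Tnfsf12 the 4 no CIA points lie at 7.681 to 11.11 FPKM, at the low end of the other groups.

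Tnfsf12, the ligand gene, showed a different order, with similar levels in the 4 immunised groups and lower ones in no CIA paws. It lies on chromosome 11 (positions 69686250 to 69695849, minus strand), where it overlaps Tnfsfm13 on the same strand and Tnfsf13os on the other, so its reads may be partly theirs. Its lowest, median and highest levels were 10.14, 12.6 and 23.62 FPKM in anti-IL-6 paws, 10.66, 13.92 and 17.6 FPKM in anti-TNF paws, 9.898, 12.76 and 17.41 FPKM in combination paws and 8.476, 12.54 and 17.77 FPKM in isotype paws. The 4 no CIA paws had 7.681, 11.11, 10.28 and 10.14 FPKM. Of 13 libraries, 9 in the anti-IL-6 group, 11 in each of the anti-TNF and combination groups and 10 in the isotype group lay above the highest no CIA library, and all groups overlapped. Isotype minus no CIA was 0.36 ± 0.144 (SE, unadjusted p = 0.0148, adjusted p = 0.266 by limma) and anti-TNF minus no CIA was 0.46 ± 0.144 (adjusted p = 0.125), so neither was called. With index run in the model anti-TNF minus no CIA was 0.66 (adjusted p = 0.0458 by limma). That fit meets no CIA only through isotype replicates 4 and 7, at 17.32 and 12.01 FPKM.

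Map3k14 encodes NIK, the kinase on which the pathway turns, and was among the lowest of the 8 genes. It lies on chromosome 11 (positions 103219762 to 103267472, minus strand), where it overlaps 1700028N14Rik on the same strand, so its reads may be partly of that gene. Its lowest, median and highest levels were 3.623, 4.779 and 12.74 FPKM in anti-IL-6 paws, 3.428, 5.283 and 8.6 FPKM in anti-TNF paws, 3.231, 4.29 and 6.407 FPKM in combination paws and 3.026, 4.777 and 8.247 FPKM in isotype paws. The 4 no CIA paws stood close together at 3.464, 3.274, 3.17 and 3.503 FPKM, and all 13 anti-IL-6 libraries lay above them. The share of all features without overlap in this comparison was not counted, so nothing is read from that separation. Anti-IL-6 minus no CIA was 0.54 ± 0.183 (SE; adjusted p = 0.111) and isotype minus no CIA was 0.35 ± 0.183 (adjusted p = 0.315), both by limma and neither called, where 0.558% and 0.156% of all features were. With index run in the model these were 1.05 (adjusted p = 0.0390) and 0.89 (adjusted p = 0.0249) by limma. That fit meets no CIA only through isotype replicates 4 and 7, the highest pair of their group at 8.247 and 6.065 FPKM. With the clock score as a covariate anti-IL-6 minus no CIA was -0.029. That score itself differed between these groups (0.04 ± 0.45 and 1.93 ± 0.40), so the fit cannot part it from the treatment.

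Traf3, whose product recruits NIK for degradation, varied less. It lies on chromosome 12 (positions 111166370 to 111267153, plus strand), directly after the window shown above, and overlaps 4930595D18Rik on the other strand. Its means were 5.21 ± 1.10 FPKM in anti-IL-6, 4.94 ± 0.730 FPKM in anti-TNF, 4.65 ± 0.716 FPKM in combination and 4.65 ± 0.893 FPKM in isotype paws (SD, n = 13 each), against 4.04 ± 0.284 FPKM in no CIA paws (SD, n = 4). Its range was 3.373 to 7.562 FPKM over the immunised libraries, and every group overlapped every other.

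The inhibitor genes Birc2 and Birc3 are neighbours on chromosome 9, 11635 bases apart on the minus strand (Birc2 at 7818227 to 7837064, Birc3 at 7848699 to 7873186). Both encode cIAP ubiquitin ligases of similar sequence, so that reads from stretches they share could be split between them. Birc2 was nearly flat, at 12.22 ± 2.11 FPKM in anti-IL-6, 12.03 ± 1.65 FPKM in anti-TNF, 12.09 ± 1.42 FPKM in combination, 11.96 ± 2.04 FPKM in isotype (SD, n = 13 each) and 10.85 ± 0.383 FPKM in no CIA paws (SD, n = 4). Birc3 was the most variable of the 8 genes over the immunised libraries. Its lowest, median and highest levels were 5.514, 10.86 and 27.61 FPKM in anti-IL-6 paws, 5.01, 9.329 and 23.53 FPKM in anti-TNF paws, 5.306, 8.859 and 14.46 FPKM in combination paws and 6.005, 8.863 and 16.3 FPKM in isotype paws. The 4 no CIA paws had 6.034, 5.699, 5.662 and 4.893 FPKM, below 12 of 13 isotype libraries. Isotype minus no CIA was 0.68 ± 0.275 (SE; unadjusted p = 0.0174, adjusted p = 0.266) and anti-IL-6 minus no CIA was 0.83 ± 0.275 (adjusted p = 0.111) by limma, and neither was called. With index run in the model they were 1.28 (adjusted p = 0.0303) and 1.49 (adjusted p = 0.0420) by limma. That fit meets no CIA only through isotype replicates 4 and 7, the highest pair of their group at 16.3 and 13.74 FPKM.

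Nfkb2 and Relb encode the subunits that the pathway delivers to the nucleus. Nfkb2 lies on chromosome 19 (positions 46304320 to 46312385, plus strand), where it overlaps Psd and a gene with no further name, and Relb on chromosome 7 (positions 19606217 to 19629438, minus strand). The lowest, median and highest levels of Nfkb2 were 11.93, 19.84 and 45.33 FPKM in anti-IL-6 paws, 10.86, 17.67 and 34.36 FPKM in anti-TNF paws, 10.83, 14.52 and 21.73 FPKM in combination paws and 11.15, 15.0 and 30.14 FPKM in isotype paws, against 12.39, 12.4, 11.63 and 10.98 FPKM in the 4 no CIA paws. Those of Relb were 9.348, 16.32 and 30.41 FPKM in anti-IL-6 paws, 8.149, 14.26 and 22.48 FPKM in anti-TNF paws, 7.451, 11.86 and 18.27 FPKM in combination paws and 7.795, 12.67 and 20.74 FPKM in isotype paws, against 8.195, 9.034, 9.466 and 8.763 FPKM in the 4 no CIA paws. For both genes the immunised libraries reached well above the no CIA libraries at the top and met them at the bottom. Anti-IL-6 minus isotype was 0.27 ± 0.154 (SE; adjusted p = 0.474) for Nfkb2 and 0.34 ± 0.156 (SE; unadjusted p = 0.0333, adjusted p = 0.333) for Relb by limma. Isotype minus no CIA was 0.35 ± 0.224 (adjusted p = 0.393) for Nfkb2 and 0.40 ± 0.228 (adjusted p = 0.341) for Relb, and anti-IL-6 minus no CIA was 0.75 ± 0.228 (adjusted p = 0.0958) for Relb, the lowest adjusted p among the 7 genes. With index run in the model isotype minus no CIA was 0.98 (adjusted p = 0.0350) for Nfkb2 and 0.88 (adjusted p = 0.0625) for Relb by limma. Anti-IL-6 minus no CIA was then 1.26 (adjusted p = 0.0418 by limma) for Relb. That fit meets no CIA only through isotype replicates 4 and 7. These were the highest pair of their group for Nfkb2, at 30.14 and 19.64 FPKM, and had 20.74 and 14.08 FPKM for Relb. With the neutrophil score as a covariate isotype minus no CIA was -0.099 for Nfkb2 and -0.024 for Relb, and with the clock score anti-IL-6 minus isotype was -0.148 and -0.061 for these genes.

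**Figure D2:**
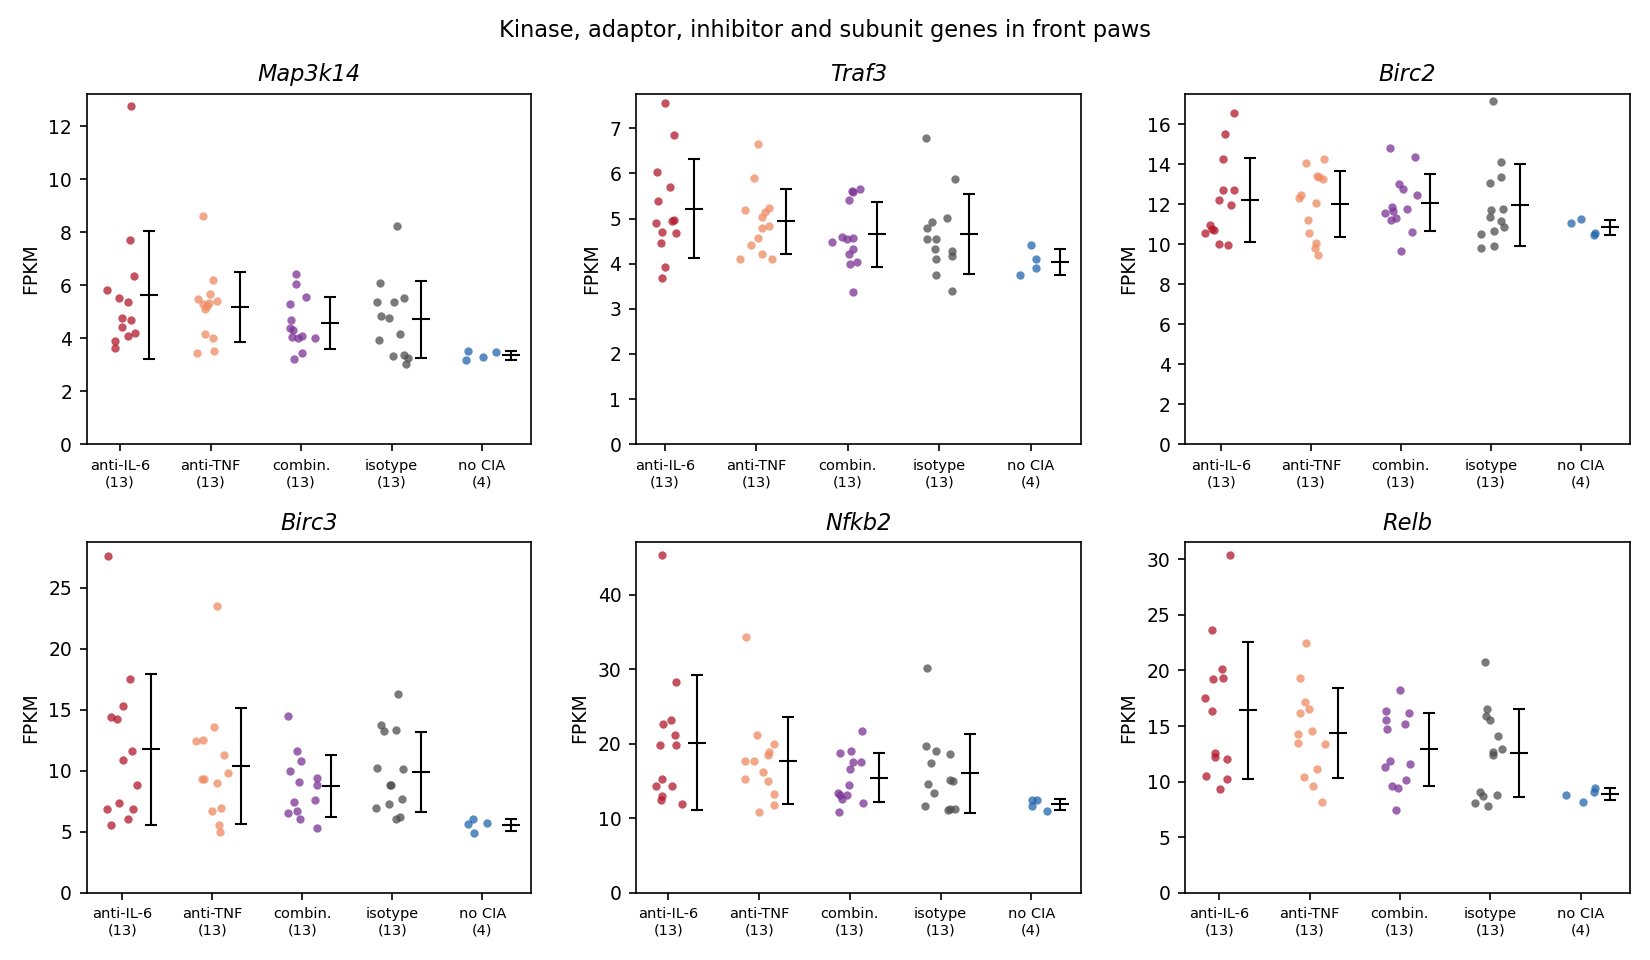
Levels in FPKM on the vertical axis of the kinase, adaptor, inhibitor and subunit genes, 1 point a library, in the 5 groups, with the mean and SD beside each group. The no CIA points form a narrow band in each panel, 4.893 to 6.034 FPKM for Birc3, with some immunised libraries below it for each gene but Birc3, while single immunised libraries reach far higher, up to 27.61 FPKM for Birc3 and 45.33 FPKM for Nfkb2.

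Without covariates, none of the 7 genes other than Tnfrsf12a was called in any comparison. In isotype against no CIA, 0 of 7 were called, where 0.156% of all features were, and 2 of 7 had an unadjusted p below 0.05, where 16.7% of features did. In anti-IL-6 against isotype, 0 of 7 were called against 0.952% of features, and 1 of 7 passed unadjusted against 12.8%. The set's own count there is 1 of 8, which is Tnfrsf12a, and nothing is read from it because that comparison chose it. In anti-TNF and in combination against isotype no feature at all was called (0%), and 0 of 7 passed unadjusted in each, where 5.47% and 5.78% of features did. In combination against anti-IL-6 0 of 7 were called against 0.102% of features, and none passed unadjusted against 11.4%. No feature was called in combination against anti-TNF or in anti-IL-6 against anti-TNF (0% each), and 0 of 7 passed unadjusted, where 1.09% and 4.68% of features did. For the contrast of IL-6 blockade with and without TNF blockade, 0 of 7 were called against 0.116% of features, and 1 of 7 passed unadjusted against 9.57%.

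The treated groups were also set against no CIA, and the counts of the 7 genes that passed unadjusted turn on the threshold. In combination against no CIA, Relb, Birc3 and Map3k14 lay just above it (unadjusted p = 0.05037, 0.05932 and 0.07005 by limma). Between the treated groups themselves 0 of 7 passed, so the counts do not show that treatments differ. Anti-IL-6 against no CIA had 0 of 7 called (0.558% of features) and 6 of 7 unadjusted (28.1% of features), anti-TNF had 0 of 7 called (0.551%) and 5 of 7 unadjusted (19.1%), and combination had 0 of 7 called (0.156%) and 1 of 7 unadjusted (10.5%). All 7 differences were positive in each, with medians of 0.54, 0.48 and 0.34, beside medians over all features of 0.07, 0.03 and 0.02. These comparisons share the 4 no CIA libraries, so they do not count as separate evidence. Nor do the 7 genes, which varied together among mice, as described below. Isotype minus no CIA also had 7 of 7 positive, with a median of 0.35 beside 0.03 over all features. Index run changed these counts. Run 1 joined no CIA with 2 isotype libraries, the highest pair of their group for Map3k14, Traf3, Birc3 and Nfkb2. With run in the model, a fit that ties no CIA to the other groups through 2 isotype libraries, 5 of 7 were called in anti-IL-6 (10.9% of features), 6 of 7 in anti-TNF (22.2%), 0 of 7 in combination (0.803%) and 4 of 7 in isotype paws (18.7%), each against no CIA. Markers of blood cells and of resident tissue also moved with the differences from no CIA. The monocyte and macrophage score was 5.74 ± 0.66 in anti-IL-6, 5.75 ± 0.61 in anti-TNF, 5.53 ± 0.40 in combination and 5.50 ± 0.46 in isotype paws, against 4.86 ± 0.11 in no CIA paws, with all 8 markers lower in no CIA than in isotype. The neutrophil score was 3.36 ± 1.19 in isotype and 1.70 ± 0.24 in no CIA paws. The fibroblast and synovial lining score was 7.80 ± 0.86 in isotype and 6.69 ± 0.16 in no CIA paws. Scores of osteoblasts, cartilage and endothelium were also higher in isotype paws, and those of skeletal muscle, epidermis, adipocytes and Schwann cells were lower. The part of cell content, of macrophages or other types, in the differences of the 7 genes was not tested.

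**Figure D3:**
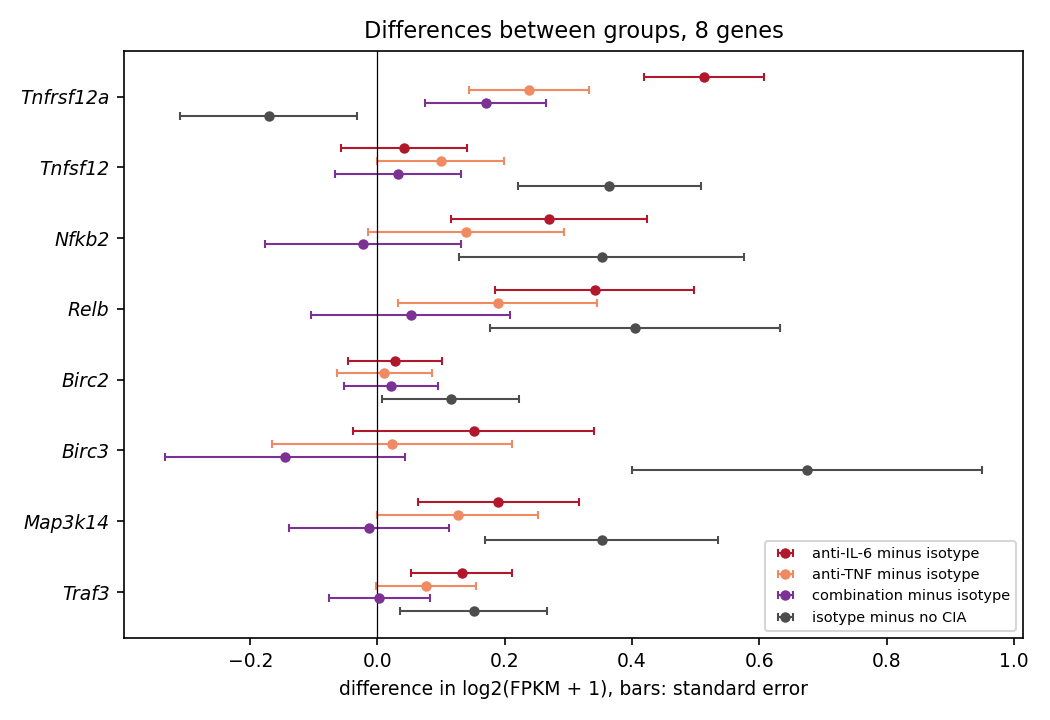
Differences between groups in log2(FPKM + 1) on the horizontal axis for the 8 genes, with bars of 1 standard error. Tnfrsf12a is the gene with the highest value for anti-IL-6 minus isotype (0.51) and the only one below 0 for isotype minus no CIA (-0.17), while Birc3 has the highest value for isotype minus no CIA (0.68).

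With group means subtracted, the 7 genes varied together over the immunised libraries. No pair with Tnfrsf12a had an adjusted p below 0.05 there by permutation test, but within the isotype group its r reached 0.711 (with Nfkb2). Over the 52 immunised libraries the highest level was 5.51 times the lowest for Birc3, 4.21 times for Map3k14, 4.19 times for Nfkb2 and 4.08 times for Relb, against 1.23, 1.10, 1.13 and 1.16 times over the 4 no CIA libraries. Anti-IL-6 replicate 13, the library least correlated with the rest, was the highest for Tnfsf12, Map3k14, Traf3, Birc3, Nfkb2 and Relb. Tnfrsf12a was highest in anti-IL-6 replicate 9 and Birc2 in isotype replicate 13. Correlations were computed on log2(FPKM + 1) after subtracting group means, with permutation within groups. Of 28 pairs, 21 had an adjusted p below 0.05 over the 148 relations computed, and these were all the pairs without Tnfrsf12a. The share over all pairs of features was not counted, so this number is not read as particular to these genes. For Nfkb2 and Relb r was 0.948 and rho 0.958 (adjusted p = 3e-05, permutation test, its unadjusted p of 1e-05 being the smallest that the permutations can give), and r was 0.945 without the 2 libraries farthest from the median of Nfkb2. It was 0.965, 0.946, 0.966 and 0.962 within index runs 2 to 5.

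Among Nfkb2, Relb, Birc3, Map3k14 and Traf3 the 10 pairs had r from 0.753 to 0.951, the highest being Nfkb2 with Map3k14 (rho 0.921, adjusted p = 3e-05, permutation test; 0.929 without the 2 farthest libraries). Tnfsf12 followed Map3k14 at r = 0.758 and rho = 0.739 (adjusted p = 3e-05, permutation test; 0.662 without the 2 farthest), and Birc2 followed Birc3 at r = 0.803 and rho = 0.813 (adjusted p = 3e-05; 0.775 without the 2 farthest). For Traf3 the pairs with Nfkb2 and Relb had r of 0.413 and 0.294 within index run 2 (n = 11), against 0.801 and 0.753 over all runs. For Tnfrsf12a the 7 pairs had r from -0.17 to 0.27, none with an adjusted p below 0.05. Within the isotype group its r was 0.711 with Nfkb2, 0.687 with Relb and 0.696 with Map3k14, and in the other 3 groups r with these lay between -0.113 and 0.203. That contrast between groups was not tested. Libraries share their tissue makeup across all genes, so a correlation is no sign that a pair of genes acts on each other.

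**Figure D4:**
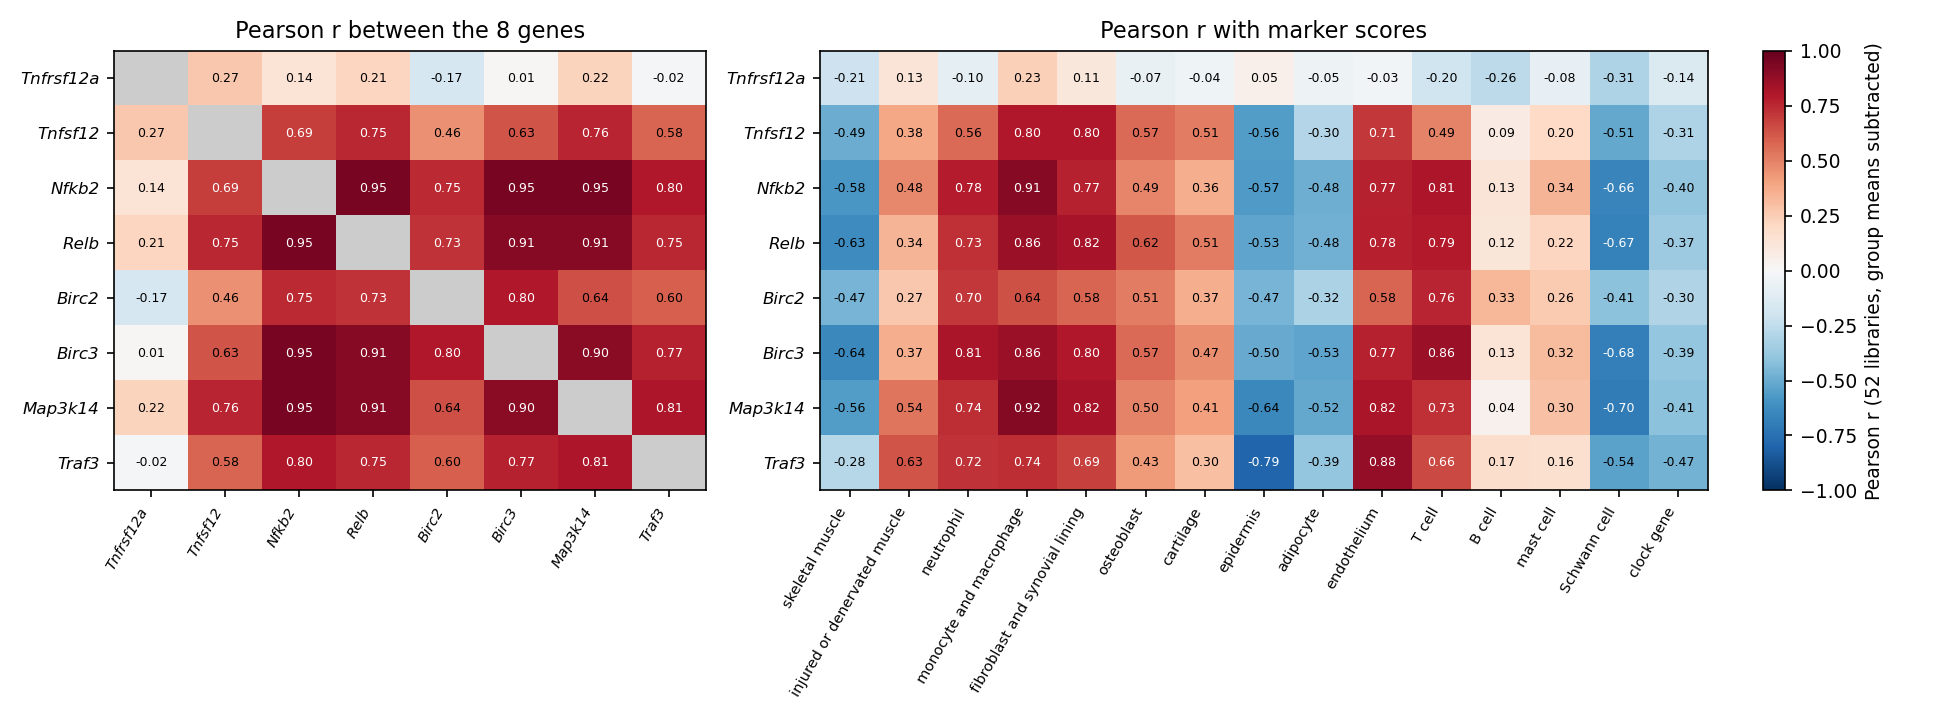
Pearson r over 52 immunised libraries after subtracting group means, for pairs of the 8 genes (left) and for each gene with 15 marker scores (right), with colour from -1 to 1. The Tnfrsf12a row is pale, with r of -0.17 to 0.27 in the left panel, while the core of Nfkb2, Relb, Birc3, Map3k14 and Traf3 runs from 0.753 to 0.951.

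Over all immunised libraries, the same division appeared against cell type markers. With the monocyte and macrophage score r was 0.915 for Map3k14 (rho 0.870; 0.878 without the 2 farthest libraries), 0.907 for Nfkb2 (rho 0.858; 0.863) and 0.863 for Relb (rho 0.866; 0.844), each with an adjusted p of 3e-05 by permutation test. For Tnfsf12, which macrophages are known to make, r was 0.799 (rho 0.837, adjusted p = 3e-05, permutation test; 0.808 without the 2 farthest). Within index runs 2 to 5 r for Nfkb2 was 0.753, 0.917, 0.977 and 0.712. With the neutrophil score r was 0.814 for Birc3 (rho 0.787) and 0.782 for Nfkb2 (rho 0.768), with the T cell score 0.863 for Birc3 (rho 0.879) and with the endothelium score 0.878 for Traf3 (rho 0.875). With the fibroblast and synovial lining score r was 0.825 for both Relb and Map3k14. For Tnfsf12 it was 0.797 (rho 0.838), close to its r of 0.799 with the macrophage score, and which cells held its RNA was not tested. With skeletal muscle markers r was -0.642 for Birc3 (rho -0.643), and each of these relations had an adjusted p of 3e-05 by permutation test. Tnfrsf12a had r = 0.235 with the macrophage score (rho 0.215, adjusted p = 0.122, permutation test; 0.244 without the 2 farthest), -0.206 with skeletal muscle and 0.111 with the fibroblast and synovial lining score, and none of its 15 values of r had an adjusted p below 0.05. With the Schwann cell score r was -0.307 (adjusted p = 0.0552, permutation test; -0.279 without the 2 farthest) and rho was -0.333 (adjusted p = 0.032, permutation test), the one relation that passed on rank. Within groups its r with the macrophage score was 0.068 in anti-IL-6, 0.027 in anti-TNF, 0.245 in combination and 0.719 in isotype paws, and within anti-IL-6 paws its r was -0.746 with the osteoblast score and -0.727 with the cartilage score, against 0.432 and 0.282 in isotype paws. These differences between groups were not tested. The marker scores are related to each other, so these relations are not separate.

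**Figure D5:**
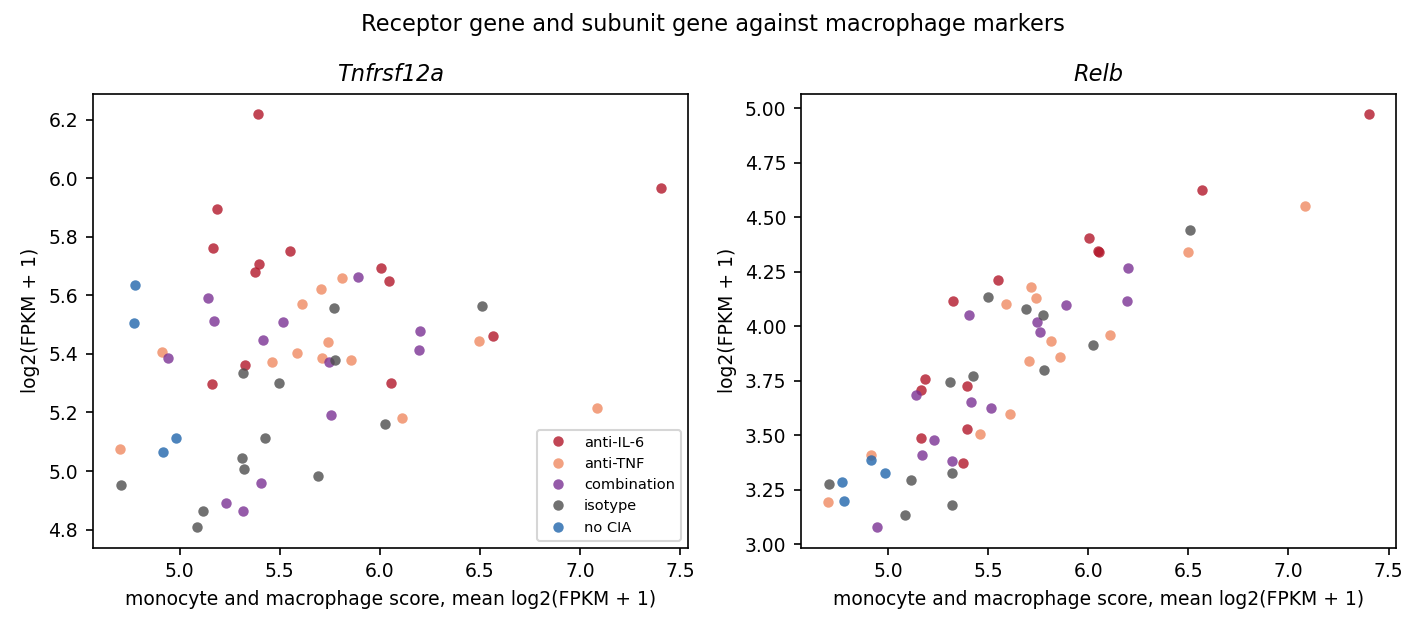
Level of Tnfrsf12a (left) and Relb (right) in log2(FPKM + 1) against the monocyte and macrophage score, the mean log2(FPKM + 1) of 8 markers, 1 point a library, coloured by group. Relb climbs with the score (r = 0.863 after subtracting group means), and Tnfrsf12a shows a scatter with no such line (r = 0.235), with most anti-IL-6 points in the upper part.

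Other genes of the pathway were counted from 6 lists of 46 genes, of which 41 passed the filter on low values. Icam1, an adhesion molecule that TWEAK is known to induce, was the one gene called in any comparison. It was 10.98, 18.98 and 38.21 FPKM (lowest, median and highest) in anti-IL-6 paws and 6.427 to 9.324 FPKM in no CIA paws. The difference was 1.12 ± 0.288 (SE, adjusted p = 0.0494 by limma). That call was kept in 9 and lost in 18 of the other settings tried, lost among them without anti-IL-6 replicates 13 and 6 (1.00, adjusted p = 0.139) and with the neutrophil score as a covariate (0.42, adjusted p = 1.0). The list of genes induced by TWEAK, which includes the scavenger receptor Cd163, had a median difference of 1.56 in anti-IL-6 against no CIA, with 9 of 11 higher at an unadjusted p below 0.05, where 21.2% of all features were, and of 1.06 in isotype against no CIA with 6 of 11, where 11.9% were. In anti-IL-6 against isotype its median was 0.24 with 0 of 11 passing, beside a median of 0.03 and a share of 9.95% over all features. The other receptors that reach NIK had 2 of 6 higher unadjusted in isotype against no CIA and 0 of 6 in anti-IL-6 against isotype, and the other ligands 0 of 5 in both. Lymphoid chemokines and other noncanonical targets had 1 of 5 in isotype against no CIA and 0 of 5 in anti-IL-6 against isotype. The remaining adaptors and kinases had a median of 0.09 and 0 of 5 in isotype against no CIA, and the canonical NF-kB genes 0.08 and 3 of 9. In anti-IL-6 against isotype these lists had 1 of 5 (Traf2, 0.24, unadjusted p = 0.00502) and 2 of 9 (Rela, 0.23, unadjusted p = 0.00138, adjusted p = 0.0846, and Nfkbib, 0.12, unadjusted p = 0.0175), by limma and none called. These 3 were named after their values were seen. Traf2 was not particular to anti-IL-6, at 0.22 in anti-TNF (unadjusted p = 0.00859 by limma) and 0.13 in combination, each against isotype.

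Genes whose pattern was most like that of Tnfrsf12a came from outside the set. Among 14283 genes over the 52 immunised libraries, after subtracting group means, the highest r were 0.70 for Fosl1, 0.667 for Lmna, 0.65 for Tagln2, 0.644 for S100a10 and 0.639 for Ubtd1. Without subtracting group means they were 0.775 for Fosl1, 0.737 for Gps1, 0.736 for Tagln2, 0.726 for Elp5 and 0.711 for Zbtb21. Fosl1, a subunit of the AP-1 transcription factor, was at 4.79 ± 2.52 FPKM in anti-IL-6, 2.10 ± 0.807 FPKM in anti-TNF, 2.11 ± 0.999 FPKM in combination and 2.14 ± 1.24 FPKM in isotype paws (SD, n = 13 each), and at 1.63 ± 0.369 FPKM in no CIA paws (SD, n = 4). Of the other 7 genes, with group means subtracted, Tnfsf12 ranked closest to Tnfrsf12a, at place 2198, followed by Map3k14 at 3096, Relb at 3323, Nfkb2 at 5122, Birc3 at 8628, Traf3 at 9309 and Birc2 at 11897. Without subtracting them Relb ranked closest, at place 1949, followed by Map3k14 at 2466, Nfkb2 at 3215 and Tnfsf12 at 3562. These ranks are a description of the libraries used to choose the genes and carry no test.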

How the data were processed

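Per the labels' protocols, RNA from front paws was isolated with a Qiagen RNeasy kit, made into Illumina TruSeq Stranded mRNA libraries and sequenced in pairs on a NovaSeq system. The authors deposited FPKM values, 1 column a library, and DESeq2 appears, with no version, in the submitters' processing notes. Aligner, build and strand setting were not given in the sources used here. Feature IDs matched GENCODE M21 (GRCm38), with the version, for 51027 of 52244 Ensembl IDs. Depth was estimated from the steps between low FPKM values of single-exon genes, 74.6% to 83.12% of which were whole multiples within 0.05 of a fragment, too few to recover counts, so limma was used and not a count model.

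Features whose mean FPKM reached 1 in at least 1 group were tested on log2(FPKM + 1) with limma 3.58.1 (trend, robust prior, R 4.3.3) in 1 fit with a mean per group. Correlations used 100000 permutations within groups (Python 3.11.15, numpy 2.4.6). The fit was also run on simulated data in which genes vary independently, unlike in these libraries, and nothing is read from that run. Alternatives were the pseudocount, the filter, scaling, the compared groups alone, index run or a marker score as a covariate, and leaving out each library. Going up through the index numbers in the sample titles, a new index run begins where the mouse numbers start again from a low one, which gives 5 runs; isotype replicate 10 is out of order. Libraries were numbered within groups in accession order, and each is 1 mouse.

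The genes described and all lists were chosen with earlier results of these data known. Named are all 8 genes, called genes of 6 pathway lists, and the 5 genes most correlated with Tnfrsf12a with and without subtracting group means. Promoter windows are from RefSeq.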

Additional observations from a re-analysis of the deposited data

How the results depend on the processing

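The 4 no CIA libraries, and the uneven spread of groups over index runs, limit every comparison here. Index run 1 held all no CIA libraries and only 2 isotype ones, which were the highest of their group for Map3k14, Traf3, Nfkb2 and Birc3. With index run in the model the number of the 8 genes called was 4 (Map3k14, Traf3, Nfkb2 and Birc3) in isotype against no CIA, 5 in anti-IL-6 against no CIA and 6 in anti-TNF against no CIA, where it was 0 in each without run. Counts that turn on Tnfrsf12a in comparisons that contain the one that chose it are given with nothing read from them. They were 0 with index run or the clock score in anti-IL-6 against isotype, where the count was 1. For the contrast of IL-6 blockade with and without TNF blockade they were 1 with median-of-ratios scaling or the neutrophil score, and 0 to 1 when single libraries were left out, where the count was 0. The count of correlated pairs was 6 within index run 2 and 12 within index run 5, which hold 11 and 13 libraries, where it was 21 over all. In the other comparisons no setting changed the number of the 8 genes called.

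Not every difference was followed over the settings, and none of Traf3 or Birc2 was. Among those followed, signs turned in these cases. Tnfrsf12a was 0.032 in isotype against no CIA with index run, -0.030 in anti-TNF against no CIA with the clock score (-0.022 to 0.169 with single libraries left out), and 0.204 with index run or 0.036 with the neutrophil score in combination against no CIA (-0.089 to 0.101 with single libraries left out). With the neutrophil score isotype minus no CIA was -0.024 for Relb and -0.099 for Nfkb2. Anti-IL-6 minus isotype was -0.238 for Relb and -0.095 for Nfkb2 within index run 2 (4 libraries against 1). Within runs 4 and 5 it was 0.337 and 0.719 for Relb, and 0.368 and 0.659 for Nfkb2. With the clock score anti-IL-6 minus isotype was -0.061 for Relb and -0.148 for Nfkb2, and anti-IL-6 minus no CIA was -0.029 for Map3k14. The clock score followed group, at 0.04 in anti-IL-6, 1.22 in isotype and 1.93 in no CIA paws. A fit with it cannot part the score from the treatment. The cause of the turned signs was not tested.

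Over all features, anti-IL-6 against isotype had 140 called, 238 with the compared groups alone, 287 with median-of-ratios scaling, 55 with no filter, 43 without the 2 least correlated libraries (a setting chosen after seeing the data), 20 with index run, 0 with the clock score and 50 to 220 with single libraries left out. In isotype against no CIA 23 were called, 66 and 5 with a pseudocount of 0.1 and 10, 68 with median-of-ratios scaling, 2744 with index run, 0 with the neutrophil or clock score and 0 to 59 with single libraries left out. With index run, the neutrophil score and the clock score the counts over all features were 1608, 10 and 0 in anti-IL-6 against no CIA, where 82 were called, and 3264, 2 and 0 in anti-TNF against no CIA, where 81 were called. They were 118, 0 and 0 in combination against no CIA, where 23 were called. With single libraries left out these 3 counts ran from 17 to 149, 7 to 223 and 0 to 50. In combination against anti-IL-6, where 15 were called, they lay between 0 (clock score) and 23 (without anti-IL-6 replicate 7), and for the contrast of IL-6 blockade with and without TNF blockade, where 17 were called, between 0 (clock score) and 47 (median-of-ratios scaling). No paired analysis was possible because the labels give no replicate numbers that groups share.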
